A study of Homo sapiens with 18 samples.

Results

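Regions of H3K27 acetylation at the promoters of protein-coding genes without a divergent protein-coding neighbour are described here. Peaks of the 6 H3K27ac libraries were merged where they shared 1 bp, which gave 55382 regions, and each region took the summit of its peak with the highest −log10 q-value. A region was kept when its summit lay within 1 kb of a protein-coding transcription start site (TSS) and when no such start had a divergent protein-coding start of the opposite strand within 1 kb. This rule gave 9361 regions, called single promoters. A further 742 regions lay at bidirectional protein-coding promoters, 2239 at starts of long non-coding RNAs (lncRNAs) only, 1096 at other annotated starts and 41944 had no annotated start within 1 kb of the summit.

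The study asked how inhibition of histone deacetylases changes chromatin in HEK293T, an established cell line derived from human embryonic kidney. Cells of the CTRL group were untreated, and cells of the VPA group received 1 mM valproic acid for 1 day. Each group had 3 H3K27ac and 3 CTCF libraries, and the 6 input libraries were not analysed here. Nothing in the labels says that replicates came from separate cultures, so p-values measure the spread between these libraries, which may be technical, and a bulk culture cannot tell fewer acetylated cells apart from less acetylation per cell.

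Acetylation of lysine 27 of histone H3 is placed by p300 and CBP, removed by histone deacetylases, and read by bromodomain proteins. It marks nucleosomes on the flanks of active promoters and enhancers. Most promoters of widely expressed genes in mammals lie in CpG islands, whereas many promoters of tissue-restricted genes are poor in CpG dinucleotides. Valproic acid inhibits class I and class IIa histone deacetylases.

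The sequences of 7 promoters are shown because they span the range of what was measured. REST, MAST1, RPL24 and RPS24 were among the members acetylated in all 6 libraries, and so was SLITRK1. The regions at the printed starts of LAT2 and IFRD1 had a peak only in the VPA libraries. Each line gives the 100 bases before the TSS and the first 20 bases of the gene, on the strand of the gene, from the hg38 genome with GENCODE starts. Capitals mark CpG dinucleotides.
REST (chr4:56907776-56907895, plus strand): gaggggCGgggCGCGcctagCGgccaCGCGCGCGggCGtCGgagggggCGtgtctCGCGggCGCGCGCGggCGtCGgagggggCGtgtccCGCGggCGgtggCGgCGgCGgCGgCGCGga
MAST1 (chr19:12833851-12833970, plus strand): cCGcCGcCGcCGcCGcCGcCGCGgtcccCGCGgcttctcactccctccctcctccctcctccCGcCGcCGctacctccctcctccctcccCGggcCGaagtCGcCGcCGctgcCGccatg
RPL24 (chr3:101686714-101686833, minus strand): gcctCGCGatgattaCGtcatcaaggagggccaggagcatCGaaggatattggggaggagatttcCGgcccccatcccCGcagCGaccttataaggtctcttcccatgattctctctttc
RPS24 (chr10:78033660-78033779, plus strand): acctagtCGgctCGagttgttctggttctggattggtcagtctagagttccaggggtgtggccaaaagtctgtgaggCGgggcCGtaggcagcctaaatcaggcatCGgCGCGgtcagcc
SLITRK1 (chr13:83882455-83882574, minus strand): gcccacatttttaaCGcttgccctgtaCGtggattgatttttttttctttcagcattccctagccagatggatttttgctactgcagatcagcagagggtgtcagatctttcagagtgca
LAT2 (chr7:74199552-74199671, plus strand): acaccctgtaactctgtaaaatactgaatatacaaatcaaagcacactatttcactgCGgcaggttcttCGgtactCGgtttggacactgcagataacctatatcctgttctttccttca
IFRD1 (chr7:112422787-112422906, plus strand): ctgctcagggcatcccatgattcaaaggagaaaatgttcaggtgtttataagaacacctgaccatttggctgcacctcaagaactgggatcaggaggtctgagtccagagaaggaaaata

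The window of REST held 29 CpG dinucleotides and that of MAST1 held 19, against 2 in SLITRK1 and 0 in IFRD1. The windows of RPL24 and RPS24 held 7 each, although these members were among those with the highest enrichment.

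Of 19111 protein-coding genes on chromosomes 1 to 22, 1659 had a divergent partner and 17452 did not. Of the genes without a partner, 10042 (57.5%) had their start within 1 kb of a member's summit, and 8662 (49.6%) had a member found in every library. Of the 7410 genes without a member, 1635 (22.1%) had another annotated start near the summit of some region, so these shares refer to the outermost start of each gene. A start that lay inside a wide region but over 1 kb from its summit also counted as without a member. The word single refers to divergent protein-coding neighbours only. Among members, 8654 held 1 protein-coding start and 707 held more, and 417 (4.45%) of all members held starts of both strands that were not divergent. A lncRNA start lay within 1 kb of the summit in 2041 members (21.8%). Around the distance limit, 182 members had the summit 900 to 1000 bp from the nearest start, and 171 regions lay just outside, up to 1100 bp away.

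The share of promoters with acetylation was greater where CpG content was higher. The ratio of observed to expected CpG dinucleotides was computed over the window from 250 bases before to 50 bases after each start. Of the 1218 single genes with a ratio under 0.1, 5.67% had a member. The share was 39.8% of 985 genes in the bin that begins at 0.4, 80.9% of 2082 genes in the bin that begins at 0.7 and 92.9% of 490 genes at 1.1 or above. Genes with a member in all 6 libraries followed the same order, from 2.22% in the lowest bin to 89.8% in the highest.

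**Figure D1:**
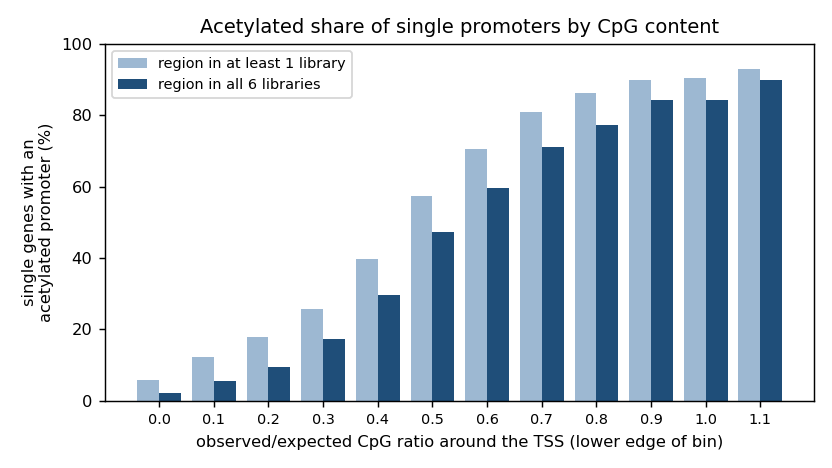
Percent of single protein-coding genes (y axis) with an acetylated promoter, in bins of the observed/expected CpG ratio (x axis, lower edge of each bin). Light bars count genes with a member in at least 1 library and dark bars those with a member in all 6, and both climb from under 6% to about 90% from the lowest to the highest bin.

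Genes with a member in all 6 libraries had a median GC content of 65.0% and a median CpG ratio of 0.839, and 85.5% of them had a ratio of at least 0.6. Genes with a member in 1 to 5 libraries had a median ratio of 0.657. Genes without a member had a median ratio of 0.281, and 20.7% of them reached 0.6. Genes of divergent pairs had the highest median, at 0.875.

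Short motifs were searched on both strands of the same 300-base window, except the TATA box. The GC box (GGGCGG) was present at 70.4% of genes with a member in all 6 libraries, at 26.2% of genes without a member and at 52.6% of all genes. The core of ETS factor sites (CGGAAG) stood at 30.8% of the former, 8.84% of the latter and 22.1% of all genes, and at 43.5% of genes of divergent pairs. The core of the NRF1 site (GCATGCG) was found at 6.36%, 1.63% and 4.51% in the same order, and the palindrome core (TCTCGCG) at 6.29%, 1.16% and 4.32%. All 4 of these motifs contain CG. The CCAAT box (CCAAT), which contains none, stood at 35.9% of genes with a member in all 6 libraries and at 35.6% of all genes. The TATA box (TATAAA on the sense strand, beginning 40 to 20 bases before the start) went the other way, with 1.04% of genes with a member in all 6 libraries, 5.82% of genes without a member and 3.06% of all genes. Other motifs searched were the E2F core (TTCCCGC), at 10.8% of genes with a member in all 6 libraries and 7.69% of all genes, and the CRE core (TGACG), at 33.5% and 26.6%. The YY1 core (AAGATGG) stood at 6.44% and 5.53%, and the E-box (CACGTG) at 9.85% and 8.24%. A match only means that these letters occur in the window.

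The labelled cell line was checked against its markers. Of the genes listed for HEK293T cells, the intermediate filament genes NEFM and INA and the RNA-binding protein gene IGF2BP1 had a member in all 6 libraries. Their mean folds were 5.97, 6.35 and 49.1, against a median of 19.1 over members in all 6 libraries. The member of INA also held the start of NT5C2. PAX2, LIN28B, NEFL and TUBB3 had no region with its summit within 1 kb of their outermost start. Of 14 markers of liver, blood, muscle and epithelium, 12 had no such region, including ALB, PTPRC, CD3E, HBB, MYH7 and KRT5. The other two were weak. TTR, a liver marker, had a peak in 2 libraries with a mean fold of 3.36, and CDH1, an epithelial marker, had one in 3 libraries with a mean fold of 3.63. Of 409 olfactory receptor genes without a divergent partner, 1 (0.244%) had a member.

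Of the 9361 members, 7983 (85.3%) had a peak in all 6 libraries, against 95.7% of bidirectional promoters, 57.1% of lncRNA promoters and 19.4% of regions without a start. Members with a peak numbered 8075, 8823 and 8808 in the CTRL libraries 1 to 3, and 8412, 9112 and 9026 in the VPA libraries. The VPA library was the higher one for each replicate number, by 337, 289 and 218, but the ranges of the groups overlapped. The means were 8569 ± 428 and 8850 ± 382 (SD, n = 3 each), and an exact two-sided permutation test gave p = 0.5 (Benjamini-Hochberg adjusted over 10 library-level tests, 0.625). With 3 libraries per group this test cannot go below an exact p of 0.1.

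The lists give no read totals. The background coverage that the lists imply was 3.51 to 3.95 fragments in the 12 ChIP libraries. Replicate 1 of both H3K27ac groups stood apart, with 21.3% and 24.0% of peaks at the genome-wide background level against 3.49% to 7.25% in the other 4 libraries. In replicate 1 the median local background at members was 13.8 times the library's background coverage in CTRL and 12.04 times in VPA, against 2.93 to 3.31 times in the others. At regions without a start it was 2.43 to 2.86 times in all 6 libraries. The deposited fold enrichment divides by this local background. A second measure, the relative pileup, was therefore used beside it. It is the number of fragments over the summit, recovered from the deposited fold and p-value, divided by the background coverage of the library. It does not divide by the local background, and as no spike-in is described it is relative to each library's own coverage.

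Over the members with a peak in all 6 libraries, the median fold enrichment was 9.29, 26.8 and 24.7 in CTRL and 8.18, 21.1 and 21.2 in VPA. It was lower in VPA for 3 of 3 replicate numbers, but the difference between replicate 1 and the others exceeded that between the groups (exact two-sided permutation p = 0.5, adjusted 0.625). Without VPA replicate 1 the difference of means changed from −3.42 to 0.943. The median relative pileup was 122.6, 92.0 and 89.6 in CTRL and 94.9, 66.1 and 69.4 in VPA. VPA was lower by 22.5% to 28.2% for each number, while VPA replicate 1 lay above CTRL replicates 2 and 3 (exact permutation p = 0.3). Regions without a start had medians of 18.2, 19.8 and 20.3 in CTRL and 21.8, 20.5 and 20.8 in VPA, so that members exceeded them in every library. On the log2 scale, the median fold of members exceeded that of regions without a start by 0.67, 1.81 and 1.69 in CTRL and by 0.30, 1.33 and 1.33 in VPA. This gap was smaller in VPA by 0.36, 0.48 and 0.36 (exact permutation p = 0.5, adjusted 0.625).

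**Figure D2:**
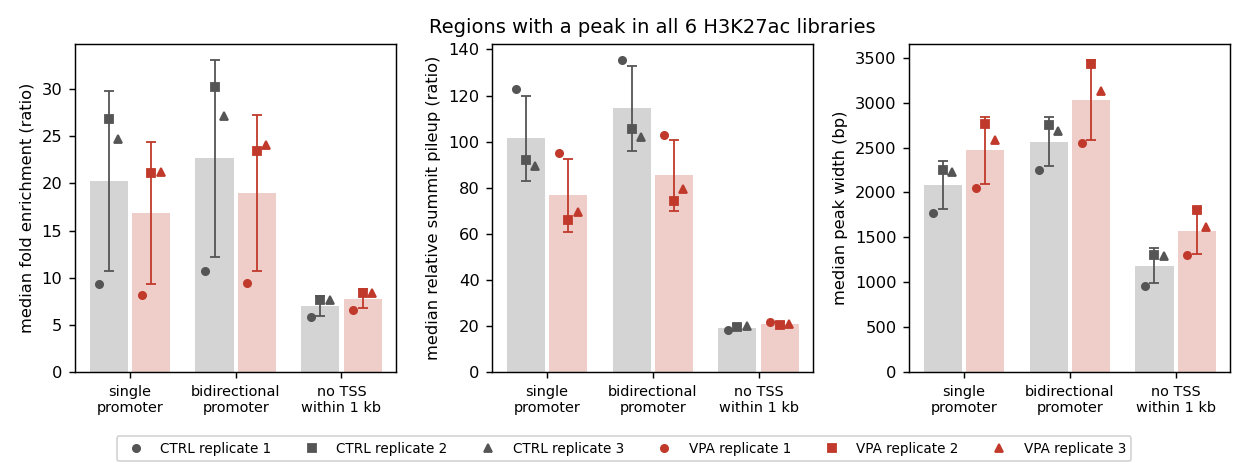
Median fold enrichment, median relative summit pileup (both ratios) and median peak width (bp) of each H3K27ac library over regions with a peak in all 6 libraries, by class; symbols are replicates, bars are group means and error bars are SDs (n = 3). At single promoters relative pileup is lower and width greater in VPA than in CTRL for each replicate number.

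No difference in the VPA change of fold was detected between members and bidirectional promoters. The log2 difference of their median folds was −0.21, −0.17 and −0.13 in the CTRL libraries, and −0.20, −0.15 and −0.19 in the VPA libraries (exact permutation p = 0.8, adjusted 0.889). In peak width the classes were apart in every library. The median width of members minus that of bidirectional promoters was −481, −505.5 and −457 bp in CTRL and −495.5, −661 and −536 bp in VPA. Members were thus narrower in each library, and the mean of the 6 differences was −523 bp (exact two-sided sign-flip permutation p = 0.03125, the smallest that 6 libraries allow, adjusted 0.156).

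The median width of peaks at members was greater in the VPA library of each replicate number. It was 1774, 2249 and 2229 bp in CTRL and 2051, 2763 and 2588 bp in VPA. The differences were 15.6%, 22.9% and 16.1%, but VPA replicate 1 was narrower than CTRL replicates 2 and 3 (means 2084 ± 269 and 2467 ± 371 bp, SD, n = 3, exact permutation p = 0.3, adjusted 0.6). Of the 7983 members in all 6 libraries, 5358 (67.1%) were wider in VPA for 3 of 3 numbers and 139 (1.74%) were narrower. At the same regions, relative pileup was lower for 3 of 3 numbers in 6377 members (79.9%) and higher in 468 (5.86%), without centring. After centring on each library's median over all regions with a peak in all 6 libraries, the counts were 4635 lower and 1425 higher. These refer to 7978 members, the nearest to the start of each gene. Without centring, the peak was both lower and wider in 4054 members (50.8%), against 16.4% of regions without a start. Of the latter, 59.5% were wider, and 36.7% had lower and 30.4% had higher relative pileup before centring.

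In each library the acetylated interval reached farther into the gene than away from it, measured from the outermost annotated start of each gene. The summit lay downstream of the start in 80.7% of members in all 6 libraries, at a median of 249 bp (quartiles 130 and 355 bp). Over 6288 members with the start inside the peak in all 6 libraries, the median downstream extent was 1173, 1439 and 1413 bp in CTRL and 1313, 1721 and 1603 bp in VPA. The upstream extent was 656.5, 818 and 819 bp in CTRL and 773, 993.5 and 952 bp in VPA. Downstream exceeded upstream extent in 6 of 6 libraries, by 608 bp on average (exact two-sided sign-flip permutation p = 0.03125, adjusted 0.156). Both extents were greater in VPA for 3 of 3 numbers (exact permutation p = 0.3 each, adjusted 0.6).

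Coverage along the promoter showed the same. At 1 kb upstream of the start, 21.0%, 32.4% and 32.4% of 7325 members lay inside a peak in CTRL, and 30.2%, 46.3% and 43.6% did in VPA. At 1 kb downstream the shares were 60.8%, 76.0% and 75.9% in CTRL and 69.97%, 85.3% and 82.9% in VPA. At the start itself the shares ranged from 88.5% to 97.6% in CTRL and from 91.3% to 98.7% in VPA.

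**Figure D3:**
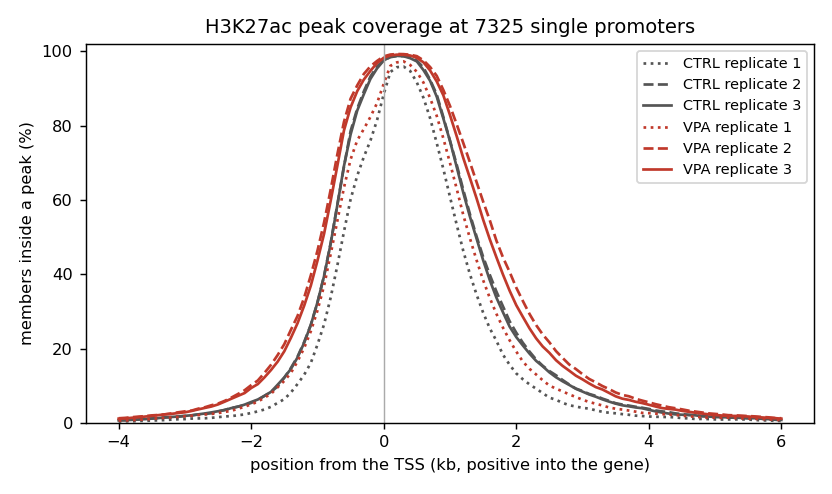
Percent of 7325 members with 1 protein-coding start that lie inside an H3K27ac peak (y axis) by distance from the start in kb (x axis, positive inside the gene), 1 line per library. Lines of VPA libraries lie above the CTRL line of the same replicate number at −1 kb and at +1 kb.

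The change at single regions was tested with limma over the 18407 regions of all classes with a peak in all 6 libraries, with Benjamini-Hochberg adjustment over all of them and centring on each library's median. On log2 fold without pairing, no member was called at an adjusted p under 0.05 in either direction, and the share of all tested regions was 0% in each. At an unadjusted p under 0.05, 90 members were higher and 634 lower, against 2.09% and 5.97% of all tested regions. Libraries of the same replicate number were treated as pairs. Deviations of the replicate 1 libraries from their group means correlated at 0.86. Those of replicates 2 and 3 correlated across numbers (0.61 and 0.55) about as they did within numbers (0.59 and 0.59). The values therefore set replicate 1 apart but do not show which libraries of replicates 2 and 3 belong together. With the replicate block, 167 members were called higher (6.46% of all tested regions were) and 894 lower (8.59% of all tested regions). On relative pileup without the block, 564 members were higher (all regions, 11.7%) and 3223 lower (all regions, 27.1%). On relative pileup with the replicate block, a fit added after the data were seen, 959 members (12%) were called higher and 4099 (51.3%) lower. The background shares in that fit were 24.5% higher and 35.4% lower. Bidirectional promoters stood near the members, with 9.86% higher and 53.0% lower, whereas 38.9% of regions without a start were called higher and 17.0% lower.

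These calls are relative to the median tested region. That median was itself 0.24 lower in VPA on the log2 scale of relative pileup, and 0.09 lower in fold. The median change of members in relative pileup was −0.19 with centring, −0.42 without it and 0.00 after quantile normalization. Without centring, 285 members (3.57%) were called higher and 5907 (74.0%) lower, against 12% and 53.5% of all tested regions. After quantile normalization 1665 (20.9%) were called higher and 1788 (22.4%) lower, against 21.2% and 21.1% of all tested regions, so the balance of the calls depended on the scaling and the last shares lay near the background.

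The change followed the level of acetylation. Members were placed in bins of mean log2 relative pileup over the 6 libraries. Below 4 the median change without centring was 0.16 in 96 members. It was −0.20 in 1815 members between 5 and 6, −0.43 in 3643 members between 6 and 7, and −0.64 in 1861 members of 7 or more. Regions without a start had similar values in the same bins, with 0.16 in 3365 regions below 4, −0.15 in 1362, −0.42 in 1058 and −0.69 in 372. The exception was the bin between 4 and 5, with −0.09 in 568 members and 0.10 in 1990 regions without a start. The binned level includes both groups, so it is not independent of the change. Widths were greater in VPA in every bin, from a median log2 change of 0.48 in the weakest members to 0.19 in the strongest.

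**Figure D4:**
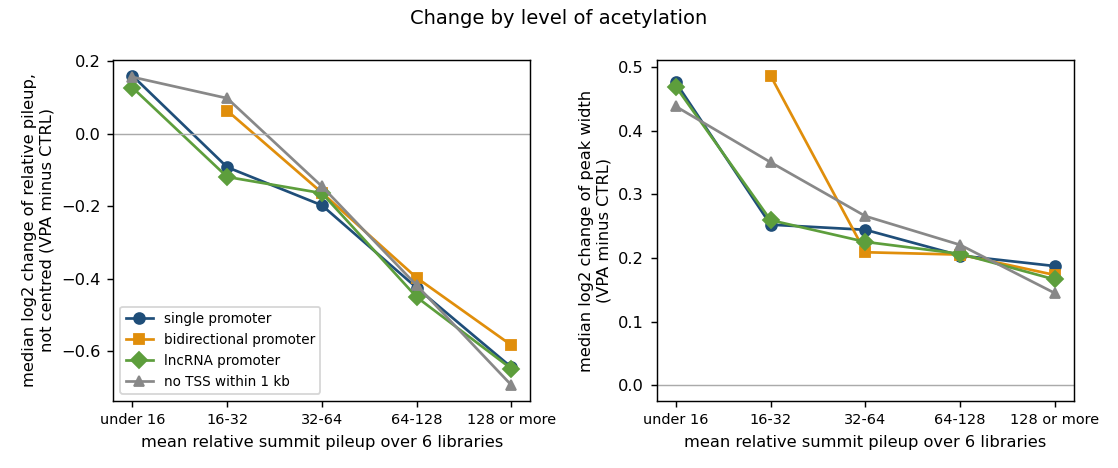
Median log2 change from CTRL to VPA of relative pileup without centring (left) and of peak width (right), by bin of mean relative summit pileup over 6 libraries (x axis), 1 line per class, with bins of fewer than 15 regions left out. At single promoters the change in pileup goes from 0.16 in the lowest bin to −0.64 in the highest, and regions without a start give 0.16 and −0.69 there.

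Members called higher in relative pileup with the block had a median relative pileup of 46.9, a width of 1678 bp and a CpG ratio of 0.772. Members called lower had 122.2, 2705 bp and 0.868, and the other members 68.6, 1995 bp and 0.83. Among 1085 members with a CpG ratio under 0.6, 21.8% were called higher and 36.4% lower, against 10.5% and 53.7% of the 6898 others. Members with a lncRNA start nearby had library medians of relative pileup that averaged 115.6 ± 21.2 in CTRL and 83.7 ± 17.6 in VPA (SD, n = 3). Of these 1887 members 59.3% were called lower, against 48.9% of the 6096 members without one. These splits were not tested, and level differed along with them.

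The fold data called no member without pairing, so the 3 members with the smallest p in each direction are given as values. NR1H2 encodes liver X receptor beta, an oxysterol-sensing nuclear receptor (region chr19:50329453-50331664). Its fold was 4.58, 10.1 and 9.83 in CTRL and 13.6, 22.4 and 20.7 in VPA, so the groups did not overlap (log2 difference 1.35, SE 0.26, limma adjusted p = 0.599, and 0.00146 with the replicate block). Its relative pileup was 28.1, 35.6 and 37.1 in CTRL and 78.3, 62.3 and 64.7 in VPA. PIP5KL1, related to phosphatidylinositol phosphate kinases (chr9:127930064-127933631), had folds of 5.68, 7.40 and 8.21 in CTRL and 11.0, 25.4 and 20.4 in VPA. ALDOC, the aldolase isoform of brain (chr17:28576125-28577985), had 1.75, 2.97 and 3.56 in CTRL and 4.53, 10.0 and 9.38 in VPA. In both, every VPA library lay above every CTRL library.

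On the other side stood HOXB2, a homeobox gene of the body axis (chr17:48542292-48549706), with folds of 23.3, 71.2 and 51.4 in CTRL and 7.55, 24.6 and 17.1 in VPA. Only VPA replicate 2 exceeded the lowest CTRL library (log2 difference −1.50, SE 0.27, limma adjusted p = 0.599, and 0.000375 with the replicate block). BAZ2B, which encodes a bromodomain protein (chr2:159613645-159618355), had 17.9, 51.0 and 41.1 in CTRL and 7.98, 16.1 and 19.6 in VPA. FOXB1, a forkhead transcription factor gene (chr15:59998991-60007234), had 18.97, 50.5 and 42.4 in CTRL and 8.36, 11.5 and 20.1 in VPA. For these 2 genes the groups overlapped by VPA replicate 3 against CTRL replicate 1.

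On relative pileup with the replicate block, members were taken that were called and whose centred values did not overlap between the groups. The 6 with the largest change in each direction were chosen from them after their values were seen. Lack of overlap and a small p were thus conditions of the choice. The highest was MAST1, a microtubule-associated kinase gene expressed mainly in neurons (chr19:12832978-12836924), with relative pileups of 29.5, 25.1 and 22.8 in CTRL and 90.6, 56.4 and 69.1 in VPA. The groups did not overlap (log2 change 1.70, SE 0.10, limma adjusted p = 1.12e-09). SLITRK1, which encodes a neuronal membrane protein (chr13:83881653-83883652), had 11.6, 11.6 and 11.98 in CTRL and 33.4, 28.9 and 28.9 in VPA. C5AR1, the receptor gene for complement C5a, had 10.7, 12.4 and 13.4 in CTRL and 31.8, 35.9 and 32.5 in VPA. The other 3 were TMEFF2, a transmembrane protein gene (log2 change 1.53), ELL, an elongation factor gene of RNA polymerase II (1.505), and JUP, the plakoglobin gene of cell junctions (1.45). All 6 started from relative pileups under 43 in CTRL, far under the members' median.

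The largest negative changes included HOX genes of the HOXB and HOXD clusters. HOXB9 (chr17:48608376-48628413) had relative pileups of 612, 431 and 430 in CTRL and 226, 141 and 162 in VPA, without overlap (log2 change −1.25, SE 0.05, limma adjusted p = 1.04e-10). HOXB2 had 272, 196 and 203 in CTRL and 93.8, 72.1 and 72.9 in VPA, and HOXD8 had 275, 171 and 166 in CTRL and 103, 57.7 and 67.2 in VPA. NRP1, a co-receptor gene for semaphorins and VEGF, had 164, 109 and 106 in CTRL and 66.1, 36.7 and 42.1 in VPA. BMI1, a subunit gene of Polycomb repressive complex 1, had 273, 191 and 182 in CTRL and 97.6, 72.4 and 73.7 in VPA. CROCC, the gene of the ciliary rootlet protein, changed by −1.15. In each of these 6 every VPA library lay below every CTRL library, a separation that the choice required after centring.

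The HOX genes were followed further, as a group chosen after values were seen. Of 39 HOX genes, 13 had a member, all with a peak in all 6 libraries. In relative pileup with the block, 11 of them were called lower and none higher, against 51.3% and 12% of all members, and 10 of the 13 were called lower after quantile normalization. Their median change was −0.81, and −0.43 after quantile normalization. The remaining 2 were HOXB13 (log2 change −0.14, limma adjusted p = 0.0602) and HOXD1 (−0.04, limma adjusted p = 0.811). HOXD1 was the weakest of the 13, with relative pileups of 24.5 to 41.1.

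The members with the highest mean fold were DDX39B, RPL24, RPS24, ZRANB2 and RPL41, genes of splicing factors and ribosomal proteins. This rank pools libraries of different fold level, and DDX39B had folds of 211 and 66.2 in the replicate 1 libraries of CTRL and VPA against 42.4 to 92.6 in the others. RPL24 (chr3:101683592-101688418) had relative pileups of 368, 340 and 349 in CTRL and 203, 161 and 178 in VPA, without overlap. ZRANB2 had 218, 225 and 220 in CTRL and 197, 149 and 169 in VPA, a change that was not called (log2 change −0.14, limma adjusted p = 0.0635) and was positive, at 0.33, after quantile normalization. Its fold ran from 155 and 171 in the replicate 1 libraries to between 32.3 and 47.8 in the others.

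Widths ran from a mean of 493 to 11770 bp, with a median of 2311 bp, and 273 members (3.42%) were wider than 5 kb. The widest was RCC1, the nucleotide exchange factor gene of Ran (chr1:28503495-28516602), with widths of 9921, 11487 and 12500 bp in CTRL and 10648, 13083 and 12981 bp in VPA. The groups overlapped. HOXB4, the gene of the chromatin reader ZMYND8 and the amino acid transporter subunit gene SLC3A2 were also among the widest. HOXB4 measured 12667, 14950 and 13174 bp in CTRL and 3072, 11866 and 12592 bp in VPA. Its VPA replicate 1 stood apart from the other 5 libraries.

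Gene lists were compared with the shares of all members (12% higher and 51.3% lower in relative pileup with the replicate block). Members with a peak in all 6 libraries are counted, medians are log2 changes of relative pileup after centring, and no list was tested.

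Cytosolic ribosomal protein genes had a member at 57 of 63 genes without a divergent partner, and 53 of the 57 members were called lower and 0 higher (29 lower on fold with the block). Their median change was −0.58, and −0.07 after quantile normalization, where 18 were lower and 8 higher. They were strongly acetylated, with a median relative pileup of 219.6 against 89.4 over all members found in every library. RPS24 (chr10:78032333-78037376) had relative pileups of 378, 314 and 290 in CTRL and 230, 161 and 187 in VPA. Genes of histone acetyltransferases and BET readers had 14 such members, of which 13 were lower and 0 higher, with a median change of −0.63 (−0.29 after quantile normalization, with 8 lower and 2 higher). EP300, the gene of p300, had 407, 262 and 252 in CTRL and 197, 108 and 121 in VPA, and KAT5 was the one not called (limma adjusted p = 0.533). In zinc-dependent histone deacetylase genes, the targets of the drug among them, 3 of 6 were lower and 1 was higher (median −0.10), but 0 lower and 2 higher after quantile normalization (0.05). HDAC4 had 179, 113 and 129 in CTRL and 113, 77.2 and 91.2 in VPA, with the highest VPA value just below the lowest CTRL value, and HDAC11 was called higher by centring (0.26) with 65.6, 56.2 and 51.1 in CTRL and 66.4, 54.9 and 54.3 in VPA.

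DNA replication genes had 21 such members, of which 18 were lower and 0 higher (median −0.33, but 0.03 after quantile normalization), among them CDT1, a licensing factor gene (−0.50, but 0.0217 after quantile normalization), and MCM7, whose member also held the start of AP4M1 (−0.51, but 0.12). After quantile normalization 3 members of the list were higher and 3 lower. Spliceosome and SR protein genes had 29, with 22 lower and 0 higher (median −0.24), but 5 lower and 9 higher after quantile normalization (0.05). Cell cycle regulator genes had 23, with 15 lower and 2 higher (median −0.26), but 5 lower and 4 higher after quantile normalization (0.03), and E2F3 changed by −0.75. In proteasome subunit genes 11 of 24 were lower and 1 higher (median −0.13), but 0 lower and 8 higher after quantile normalization (0.10). In tRNA synthetase genes 9 of 18 were lower and 1 higher (median −0.16), but 5 lower and 6 higher after quantile normalization (0.11). Genes of mitochondrial complex I had 11 of 20 lower and 1 higher (median −0.19), but 2 lower and 5 higher after quantile normalization (0.00). In endoplasmic reticulum stress and chaperone genes 13 of 18 were lower and 1 higher (median −0.26), but 4 lower and 2 higher after quantile normalization (0.02).

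Cholesterol synthesis genes had 19 such members, with 9 lower and 3 higher (median −0.16, but 0.24 after quantile normalization, where 12 were higher and 1 lower). The 3 called higher were HSD17B7, TM7SF2 and MVD. HSD17B7 had relative pileups of 74.7, 65.1 and 57.3 in CTRL and 98.2, 79.0 and 88.8 in VPA, without overlap. Immediate early genes had 8 of 14 lower, SRF and KLF6 among them, and 2 higher, JUNB and KLF2 (median −0.44, and −0.05 after quantile normalization, with 4 lower and 2 higher). Genes of kidney development transcription factors had a member at 9 of 23 genes, and 5 of 7 in all libraries were lower and 1 higher (median −0.73, and −0.55 after quantile normalization). SIX4 had 350, 260 and 263 in CTRL and 159, 105 and 108 in VPA, and LHX1, the one called higher, had 41.1, 37.2 and 38.2 in CTRL and 64.7, 47.8 and 52.2 in VPA. Both were without overlap.

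Neuronal genes had a member at 17 of 37 genes, and 11 of these members were found in every library. In this list 6 were called higher and 2 lower, with a median change of 0.19 (0.24 after quantile normalization). Without centring the balance turned, with 2 higher, 4 lower and a median of −0.05. The 17 members of the list had a median relative pileup of 28.0, against 79.1 over the members of all protein-coding genes. Level thus differed as well, and its part in these counts was not tested. The list holds genes prominent in the study's own expression data on these treatments, so it is not independent. SYT1, the synaptic vesicle calcium sensor gene (chr12:78863234-78865883), had relative pileups of 33.3, 30.1 and 39.9 in CTRL and 65.0, 50.6 and 53.8 in VPA, without overlap (log2 change 0.95, limma adjusted p = 6.68e-07). GAP43, NEFM, INA, MAPT and STX1A were the others called higher, and the member of INA also held the start of NT5C2. INA had 33.6, 21.6 and 20.0 in CTRL and 36.2, 25.8 and 30.3 in VPA, and MAPT had 57.9, 45.6 and 47.1 in CTRL and 60.9, 43.3 and 51.1 in VPA, so the groups overlapped in both before centring. The 2 called lower were REST, the repressor of neuronal genes (chr4:56907096-56916759), and its corepressor gene RCOR1. REST had 321, 228 and 222 in CTRL and 161, 98.7 and 109 in VPA, without overlap (log2 change −0.84, SE 0.06, limma adjusted p = 2.56e-09).

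Zinc finger genes of chromosome 19 had a member at 172 of 236 genes without a partner. Of 143 members in all 6 libraries, 47 (32.9%) were called higher and 17 (11.9%) lower, with a median change of 0.11. Without centring the balance turned, with 11 higher, 54 lower and a median of −0.13, and after quantile normalization 38 were higher and 5 lower. Other genes of chromosome 19 had 110 of 433 members higher and 158 lower (median −0.05), but 170 higher and 34 lower after quantile normalization (0.14) and 36 higher and 259 lower without centring. Zinc finger genes on other chromosomes had 24 of 184 higher and 82 lower (median −0.15), but 49 higher and 33 lower after quantile normalization (0.04). These last 2 lists were chosen after values were seen. Chromosome 19 had the highest median change of the 22 autosomes, with 0.00 against −0.31 to −0.10 on the others. The zinc finger members of chromosome 19 had a median relative pileup of 50.8 and those on other chromosomes 85.8, so level differed between the lists as well. ZNF317 (chr19:9139744-9141349), called higher by centring, had relative pileups of 95.6, 93.4 and 80.4 in CTRL and 99.8, 91.6 and 83.8 in VPA, which overlapped.

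**Figure D5:**
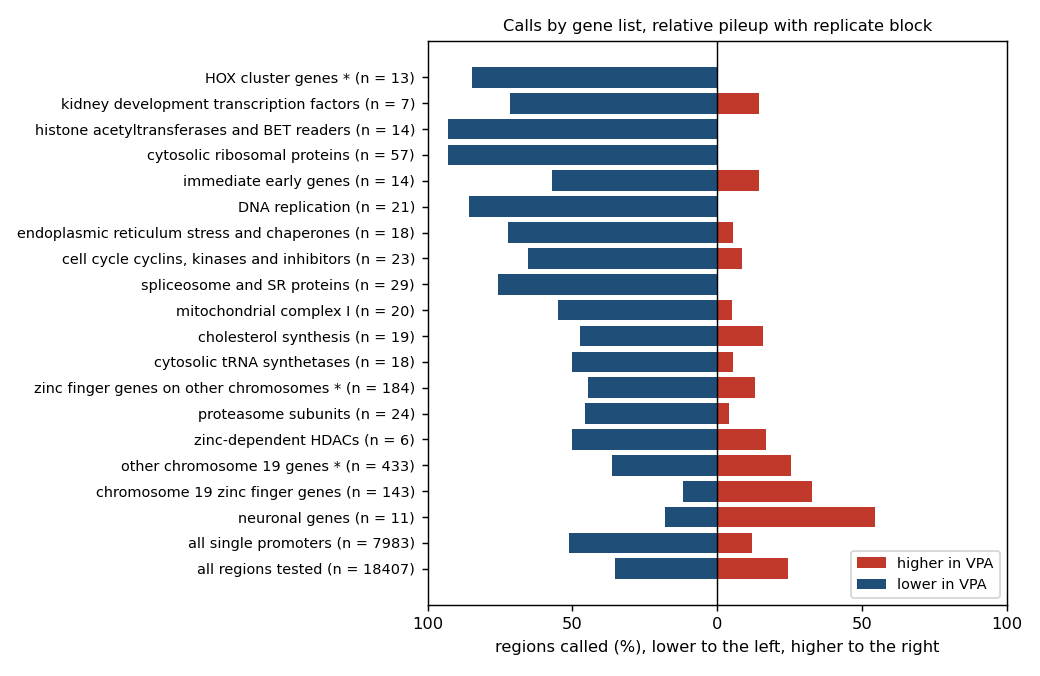
Percent of regions called lower (bars to the left) and higher (bars to the right) in VPA by limma on relative pileup with the replicate block, for gene lists with the number of members tested, for all single promoters and for all regions tested. Lists with an asterisk were chosen after values were seen, and neuronal genes and zinc finger genes of chromosome 19 are the lists drawn here with more members higher than lower, a balance that turns without centring.

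Few members had a peak in the libraries of a single group. All 3 VPA libraries and 0 CTRL libraries had a peak at 40 members (0.427%, 95% Wilson interval 0.314% to 0.581%, for counting error only), against 4.12% of all regions and 5.19% of regions without a start. The reverse was found at 0 members, which allows a share of up to 0.0320%, against 0.139% of all regions. The VPA lists were longer, with 38441 to 40992 peaks against 26299 to 29799 in CTRL. These counts were not repeated with equal list lengths. The 40 members were weak and narrow, with a median mean width of 746 bp and median folds of 3.61, 3.65 and 3.86 in the VPA libraries. Their median pileups of 32, 31 and 30.5 fragments lay above the lowest pileup of a peak in these lists, which was 11. Their median CpG ratio was 0.25, and 6 of 40 reached 0.6. In 10 of them the gene had another start in a region acetylated in all 6 libraries, and 9 lay within 10 kb of such a region.

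The 5 with the highest rank within the VPA lists were LAT2, an adaptor protein gene of immune cells, TNFAIP8L2, CCDC92B, IFRD1 and EXTL3, a glycosyltransferase gene of heparan sulfate synthesis. LAT2 (chr7:74199241-74201833) had folds of 4.12, 4.87 and 7.07 in the VPA libraries, and its printed promoter holds 3 CpG dinucleotides. IFRD1 (chr7:112422702-112424073) had 6.63, 5.78 and 4.74, and its gene has another start in a region acetylated in all 6 libraries, as has EXTL3. TNFAIP8L2 had 5.07, 5.25 and 3.86, and its member also held the start of SCNM1.

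CTCF, the DNA-binding protein that anchors chromatin loops, had a peak at 41.5%, 54.7% and 50.9% of all members in its CTRL libraries and at 46.1%, 52.7% and 47.3% in VPA. The groups overlapped (exact two-sided permutation p = 1, adjusted 1). All 6 CTCF libraries had a peak at 3531 members (37.7%) and none had one at 3701 (39.5%). CTCF peaks in all VPA libraries and 0 CTRL libraries occurred at 7 members, and the reverse at 9. Regions without a start carried CTCF in 18.2% to 23.5%, with a median length of 742 bp against 2687 bp for members. Other promoters stood nearer to the members, with CTCF at 38.3% to 49.7% of bidirectional and 37.8% to 46.5% of lncRNA promoters. With a CTCF summit required within 500 bp of the region's summit, the shares were 28.0% to 36.9% of members and 15.7% to 19.1% of regions without a start. They were 22.2% to 28.4% of bidirectional and 28.7% to 34.0% of lncRNA promoters. Of members in all H3K27ac libraries, 53.7% of the 3085 with CTCF in 6 of 6 libraries were called lower in relative pileup with the block and 12.3% higher, against 46.6% and 13.3% of the 2991 without CTCF. Library medians of relative pileup in CTRL averaged 103.7 ± 20.3 in the former and 95.8 ± 16.6 in the latter (SD, n = 3). Level thus differed along with this split, which was not tested.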

How the data were processed

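Peak lists of 6 H3K27ac and 6 CTCF ChIP-seq libraries were analysed, with groups and replicate numbers from the sample labels. The authors aligned paired-end reads to hg38 with Bowtie2 and called peaks with MACS (version 3.0.0a7 in the submitters' processing notes) for every library on its own, with a q-value limit of 0.05. Whether inputs were used in calling and how duplicates were treated is not given in the sources used here. The deposited lists hold the fold enrichment of each summit over its local background (a ratio), its −log10 p-value, its −log10 q-value and a score, all values of the authors' own peak calling. The score was used only to check the q-value column. Read totals are unknown.

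Starts were the outermost start of each gene in GENCODE 44 (Python 3.11.15, numpy 2.4.6, pandas 2.3.3, scipy 1.17.1, matplotlib 3.10.9). The peak with the highest −log10 q-value stood for a library in a region. Summit pileups were recovered from fold and p-value as whole fragments (tolerance 0.05). Library values were compared by exact two-sided permutation tests, adjusted over 10 tests. The change at regions was tested with limma 3.58.1 in R 4.3.3 (moderation with trend), on log2 fold centred on each library's median, and called at an adjusted p under 0.05. The scripts were tested on simulated data. Deviations from the group means of same-numbered libraries correlated at 0.86, 0.59 and 0.59, each over 0.1, so numbers were taken as paired. However, CTRL replicate 2 correlated at 0.61 with VPA replicate 3, and CTRL replicate 3 at 0.55 with VPA replicate 2. The pairing of replicates 2 and 3 thus rests on their labels.

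Members and lists were chosen with earlier results of these data known. Named genes were the 3 with the smallest p in each direction (none was called), the 5 with the highest mean fold, the 5 widest and the 5 of highest rank only in VPA. From each list the members with the highest mean fold were taken, as none was called on fold without pairing. Other named genes are marked as chosen after their values were seen, or are list members that the counts refer to. Alternatives were the replicate block, pileup in place of fold, other scalings, a stricter q-value, equal list lengths, all basic transcript starts, a 500 bp distance, other overlap rules, regions in at least 3 libraries, a mean fold of at least 4, moderation without trend, and leaving out libraries. Promoter sequences were read from hg38. Some items that these rules select are not reported here.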

Additional observations from a re-analysis of the deposited data

How the results depend on the processing

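The difference in median fold between VPA and CTRL was −3.42, −8.57 to 0.943 with 1 library left out. The change in the fold gap between members and bidirectional promoters was −0.0073, 0.0202 with all basic starts, 0.0183 with pileup, 0.0029 without both replicate 1 libraries and −0.0229 to 0.0128 with 1 library left out. The difference in the CTCF share was −0.288 percentage points, 1.88 with equal list lengths, 0.395 with summits within 500 bp and −4.07 to 2.55 with 1 library left out. The excess of downstream over upstream extent from the outermost starts (608 bp) was 608 bp under the replicate block (exact p = 0.25). It was 626 bp without both replicate 1 libraries (exact p = 0.125) and 584.5 to 620.3 bp with 1 library left out (exact p = 0.0625). The width difference to bidirectional promoters was −523 bp under the replicate block, −600.25 bp without both replicate 1 libraries and −550.9 to −495 bp with 1 library left out, with the same p-values. In these designs p cannot go lower. Sizes moved where directions held. The difference in members with a peak (281) was 6.67 with equal list lengths, 34.5 without CTRL replicate 1, 500.3 without VPA replicate 1 and 150.3 without VPA replicate 2. The change in the fold gap to regions without a start (−0.40) was −0.83 and −0.04 without replicate 1 of CTRL and VPA, and −0.20 and −0.25 without CTRL replicates 2 and 3. The width difference (383 bp) was 216.5, 586.5 and 235.5 bp without CTRL replicate 1 and VPA replicates 1 and 2. Under the same omissions the difference in downstream extent (204 bp) was 124.2, 319.75 and 116.3 bp, and that in upstream extent (141.7 bp) was 82.8 bp without CTRL replicate 1.

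Calls at members depended on the measure and the scaling, and the cause was not tested. With limma on fold the counts were 0 higher and 0 lower, and with the replicate block 167 and 894, or 97 and 1232 without centring (4.64% and 11.6% of all tested regions) and 36 and 62 after quantile normalization (1.54% and 1.15%). Without both replicate 1 libraries fold gave 57 and 402 (3.29% and 4.21%). Relative pileup gave 564 and 3223, with the replicate block 959 and 4099, without centring 285 and 5907 and after quantile normalization 1665 and 1788. Without both replicate 1 libraries it gave 812 and 3636 unpaired (20.2% and 31.7%). In the paired fit without both libraries of replicate 1, 2 or 3 it gave 817 and 3594, 833 and 3808, and 786 and 3883 (20.4% to 21.4% and 31.5% to 33.2%). Among 56 named members, quantile normalization of the paired relative pileup turned the log2 change positive at ZRANB2 (0.33), RCC1 (0.20), PSMC3 (0.15), YARS1 (0.15), DDX19B (0.0821), AP4M1 (0.12), CDT1 (0.0217), HDAC5 (0.0719), XBP1 (0.0535), HSPA5 (0.0319), SREBF2 (0.21), FDPS (0.34), ZNF579 (0.15) and ZNF714 (0.10). The other 127 values under alternatives for the comparisons were classed as unchanged, though not in size. Between the groups this meant the same direction only, as exact p could not go below 0.1 and so could not cross the threshold. For the sign-flip comparisons it meant the same direction and side of the threshold. For the call counts it meant 0 calls, as in the main fit on fold. Read depth is unknown, so no limit of detection in reads can be given, and a peak absent from a list may be a weak one.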
